A study of Mus musculus with 6 samples.

Results

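The 10 genes described here lie in the distal part of mouse chromosome 12: Siva1, Ahnak2, Clba1, Tex22, Klc1, A530016L24Rik, 4930465M20Rik, 4933406K04Rik, 4930511J24Rik and E330035G20Rik. They are 10 of 34144 genes in the count table, and all 10 passed the filter on low counts that left 21002 genes for testing. They were picked on the knockout against wild-type comparison of these same libraries, because changed genes gathered in this stretch and because transcripts of Tex22, Klc1 and A530016L24Rik differed. Their differences between genotypes are therefore a description and carry no test.

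Total RNA of testis was sequenced from 3 wild-type (WT) mice and 3 Nsun7-/- mice, all C57Bl/6J and 3 months old, with 1 library per mouse. Nsun7 is a member of the NSUN family, most of whose proteins methylate cytosines in RNA. Testes were freed of their capsule before RNA was taken from the seminiferous tubules, and ribosomal and globin RNA was depleted before the libraries were made. How the Nsun7 allele was made, and whether its carriers were littermates of the controls, is not given in any source used here.

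The libraries held 23480448 to 28558865 estimated counts. Nsun7 itself was counted at 36.6, 35.7 and 37.2 CPM (counts relative to library size, scaled with edgeR's trimmed mean of M-values) in WT mice 1 to 3 and at 18.0, 17.8 and 25.2 CPM in the knockout mice, so its transcript was lower but present. Germ cell markers were abundant in every library: the summed level of 5 spermatocyte markers was 4233 to 5102 CPM in WT and 3062 to 3998 CPM in the knockout, lowest in knockout mouse 3. That of 5 peritubular myoid cell markers was 477 to 524 CPM in WT and 358 to 468 CPM in the knockout, also without overlap and lowest in knockout mouse 3. Summed markers of the other germ cells overlapped between the genotypes. Those of elongating spermatids were at 6344 to 8284 CPM in WT and 5527 to 7586 CPM in the knockout. Those of round spermatids were at 489 to 563 and 494 to 552 CPM, and those of spermatogonia at 176 to 195 and 166 to 177 CPM. WT mouse 1 stood apart with 32.4 CPM of epididymis markers against 0.262 to 0.615 CPM in the other 5 libraries (Lcn5 was at 0 in all 6), and with 4.85% of its counts in the RNA Rmrp against 0.985% to 2.48%. Knockout mouse 1 had the highest summed Leydig cell markers, 4743 CPM against 1657 to 2821 CPM elsewhere, and 1 of these 5 markers, Hsd3b1, passed by edgeR as higher in the knockout. The estimated fragment length was 154.2, 167.7 and 175.1 bases in WT mice 1 to 3 and 175.7, 178.5 and 175.5 bases in knockout mice 1 to 3. The part of these differences in the results, transcript shares and TPM included, was not tested. Fewer cells of a type and less RNA per cell cannot be told apart in such bulk libraries.

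Distal chromosome 12 carries several unrelated kinds of gene side by side. Klc1 encodes a light chain of kinesin-1, the motor that carries cargo along microtubules. Clba1 encodes a protein with a clathrin-binding box, Ahnak2 a very large scaffold protein, Siva1 a pro-apoptotic protein that binds the tail of the receptor CD27, and Tex22 a protein named for its expression in testis. The other 5 bear clone names: A530016L24Rik is annotated as protein-coding and the 4 others as long intergenic non-coding RNAs (lncRNAs), a class that the testis transcribes in unusual number.

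Of the 10 genes, 7 were lower and 1 was higher in the knockout at an adjusted p under 0.05 (edgeR's quasi-likelihood test, Benjamini-Hochberg adjustment), the measure on which they were chosen. Among all genes tested, 0.567% passed, 0.333% as lower and 0.233% as higher. In CPM the WT and knockout values of all 10 genes did not overlap, which held for 14.3% of all genes tested. At the border of the rule, 4933406K04Rik was the last gene inside with an adjusted p of 0.0359 by edgeR, while Tex22 at 0.123 and Klc1 at 0.709 lay outside and were picked from their transcripts. The median log2 fold change of the 10 genes was -1.01, beside 0.01 for all genes tested.

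**Figure D1:**
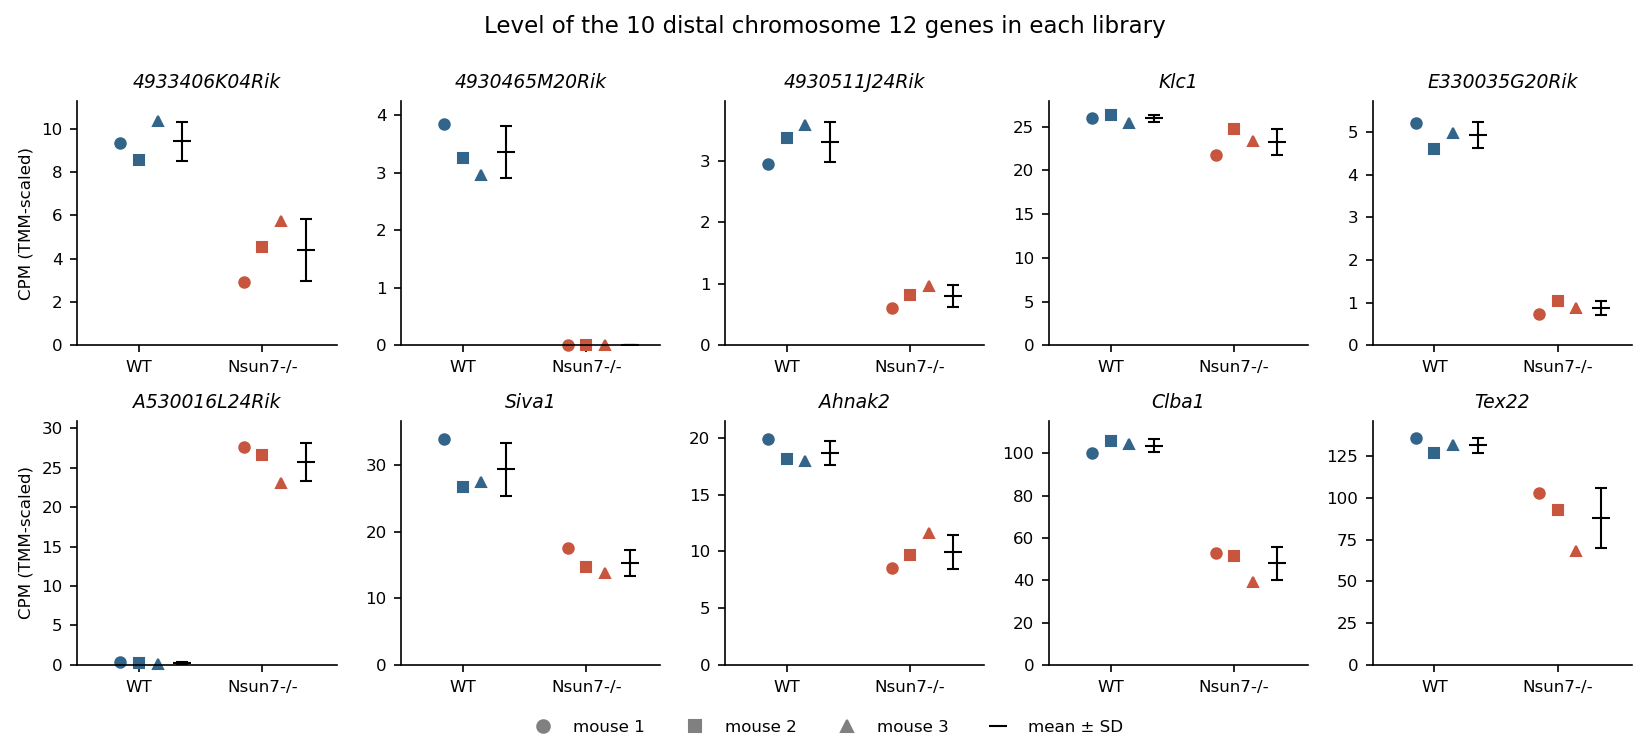
Level of each of the 10 genes in CPM (vertical axes, each from 0) in the 3 WT and 3 Nsun7-/- libraries. Symbols mark the mouse number within a genotype, and the bar is the mean ± SD of 3 mice. The sample labels do not say whether equal numbers pair animals. A530016L24Rik rises from 0.250 to 25.7 CPM, 4930465M20Rik is at 0 in all 3 knockout libraries, and Klc1 shows the smallest gap.

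The 10 genes covered a wide range of expression. By TPM, a share of all transcripts that allows for length, Tex22 was the most abundant in WT at 184 ± 30.5 TPM (SD, n = 3), above 97.2% of the genes tested. Clba1 followed at 74.5 ± 15.7 TPM, Siva1 at 42.6 ± 3.89 TPM and Klc1 at 13.4 ± 2.35 TPM, and the spreads of these neighbours in the order did not touch. 4933406K04Rik, 4930465M20Rik, 4930511J24Rik, Ahnak2 and E330035G20Rik lay between 7.88 and 1.70 TPM. From 4930465M20Rik (3.84 ± 0.613 TPM) through 4930511J24Rik (2.64 ± 0.721 TPM) and Ahnak2 (1.79 ± 0.226 TPM) to E330035G20Rik (1.70 ± 0.300 TPM), each overlapped the next within its spread. A530016L24Rik was the lowest at 0.125 ± 0.0323 TPM.

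A530016L24Rik was the one gene of the 10 with more RNA in the knockout. It had 8, 6 and 4 counts in the WT mice and 682, 708 and 712 counts in the knockout mice. The WT libraries were near the bottom of what the depth could show and the knockout libraries were all high, with no value in between. In CPM the level rose from 0.250 ± 0.105 to 25.7 ± 2.38 (SD, n = 3 each), a 103-fold difference and a log2 fold change of 6.69 (SE 0.24). In TPM its knockout level was 17.2 ± 0.851, beside 14.7 ± 2.64 TPM for Klc1.

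Both annotated transcripts of A530016L24Rik were present. A530016L24Rik-201 had 5.56, 4.66 and 3.00 estimated counts in WT and 486, 478 and 475 in the knockout, and A530016L24Rik-202 had 2.44, 1.34 and 1.00 in WT and 196, 230 and 237 in the knockout. Their shares of the gene's counts were 68.5% and 31.5% in the knockout and 74.1% and 25.9% in WT, where the few counts leave the shares imprecise. The longer model has 495 coding bases and the shorter 285, and they part where the first joins the next exon and the second reads on to a nearby stop codon. The coding sequences at that point, from the annotated transcripts (GENCODE M21), are shown because reads of both kinds were assigned in the knockout. The shared end is in lower case and each model's own bases are in capitals.
A530016L24Rik-201: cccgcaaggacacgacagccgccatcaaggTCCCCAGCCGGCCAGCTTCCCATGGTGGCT
A530016L24Rik-202: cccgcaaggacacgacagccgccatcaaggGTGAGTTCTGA

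E330035G20Rik, an lncRNA, is the next tested gene beside A530016L24Rik, on the opposite strand, and was lower in the knockout. It had 115, 119 and 129 counts in WT and 18, 28 and 27 in the knockout. The knockout libraries kept 14.8%, 21.3% and 17.7% of the WT mean, a narrow band. CPM was 4.93 ± 0.300 in WT and 0.884 ± 0.161 in the knockout (SD, n = 3 each), a log2 fold change of -2.47 (SE 0.22). Its 2 transcripts were both lower, E330035G20Rik-201 with a log2 fold change of -2.29 and E330035G20Rik-202 with -2.66.

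4930465M20Rik was not counted in any knockout library. WT mice 1 to 3 had 85, 84 and 77 counts, and the 3 knockout mice had 0 each. Set against a floor of 3 counts in each knockout library, which is 0.110 CPM on average, the WT level of 3.36 ± 0.450 CPM (SD, n = 3) was at least 30.5-fold higher. Its main transcript, 4930465M20Rik-201, held 84.5% ± 6.15 of the gene's WT estimated counts (SD, n = 3), and the other, 4930465M20Rik-202, had 7.28 to 17.0 estimated counts in WT and 0 in the knockout.

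The remaining lncRNAs were lower without being lost. 4930511J24Rik had 65, 87 and 93 counts in WT and 15, 22 and 30 in the knockout. All 3 knockout values were below all WT values, at 0.801 ± 0.183 against 3.30 ± 0.326 CPM (SD, n = 3 each), a log2 fold change of -2.03 (SE 0.25). 4933406K04Rik had 206, 221 and 269 counts in WT and 72, 121 and 178 in the knockout. Its knockout libraries were the most scattered of the 10 genes, at 30.9%, 48.2% and 61.1% of the WT mean, and the log2 fold change was -1.09 (SE 0.21). The call of 4933406K04Rik ended without WT mouse 1 (edgeR adjusted p = 0.142), WT mouse 2 (0.0664), WT mouse 3 (0.159) or knockout mouse 2 (0.109).

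The sequence upstream of the first annotated base was read for the lncRNA that was absent in the knockout and for the one next to A530016L24Rik, and for Clba1 and Siva1 among the protein-coding genes. RefSeq windows (GRCm38.p6, not the build of the counts) matched 7 of the 10 genes by symbol, of which those of 4930465M20Rik (chr12:107735497-107735738, minus strand), E330035G20Rik (chr12:112405813-112406062, minus strand), Siva1 (chr12:112644578-112644678, plus strand) and Clba1 (chr12:112808725-112808936, plus strand) are printed. Capitals mark copies of one repeated 10-base word.
4930465M20Rik: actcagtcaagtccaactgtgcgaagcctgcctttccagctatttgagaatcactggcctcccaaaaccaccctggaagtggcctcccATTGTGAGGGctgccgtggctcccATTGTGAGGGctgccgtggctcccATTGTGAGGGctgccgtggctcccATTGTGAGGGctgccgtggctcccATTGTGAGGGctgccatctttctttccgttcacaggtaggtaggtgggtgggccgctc
E330035G20Rik: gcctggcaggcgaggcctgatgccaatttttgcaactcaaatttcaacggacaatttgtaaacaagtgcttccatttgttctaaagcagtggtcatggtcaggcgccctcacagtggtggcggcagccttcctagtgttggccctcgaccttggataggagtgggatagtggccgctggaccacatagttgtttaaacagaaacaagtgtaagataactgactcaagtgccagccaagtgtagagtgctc
Siva1: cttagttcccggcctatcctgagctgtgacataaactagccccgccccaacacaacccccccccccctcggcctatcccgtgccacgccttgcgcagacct
Clba1: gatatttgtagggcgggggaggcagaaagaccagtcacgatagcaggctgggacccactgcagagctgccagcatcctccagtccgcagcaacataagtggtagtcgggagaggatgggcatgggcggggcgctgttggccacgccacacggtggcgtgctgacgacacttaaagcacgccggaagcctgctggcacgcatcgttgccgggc
The window of 4930465M20Rik holds 5 copies of ATTGTGAGGG. Windows with as many copies of any one 10-base word made up 0.399% of all 32851 in the table, low-complexity sequence included. Words were searched on either strand in the full 250 bases of each table window, which can run past the printed stretch, since bases inside an annotated transcript are not printed. The word GGGCGG was found in 4 of the 7 windows (4933406K04Rik, Klc1, Siva1 and Clba1) and in 32.7% of all windows. The word TGACGTCA was found in 1 of the 7 (Klc1) and in 1.55% of all windows, the shorter TGACG, which overlaps it, in 4 of the 7 and 17.8%, CCAAT in 1 of the 7 (E330035G20Rik) and 33.8%, and TATAAA in 0 of the 7 and 12.4%. Such matches describe the letters only.

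Clba1 showed the largest drop in CPM of the 10 genes. It had 2215, 2736 and 2717 counts in WT and 1314, 1379 and 1210 in the knockout. The WT libraries were tightly grouped, at 104 ± 3.00 CPM, and the knockout libraries lay at 48.0 ± 7.69 CPM (SD, n = 3 each), with mouse 3 the lowest. The log2 fold change was -1.11 (SE 0.13). Both transcripts have the same coding length of 963 bases, and both were lower: Clba1-201 stood at 76.8 ± 0.439 CPM in WT and 41.0 ± 8.56 CPM in the knockout, and Clba1-202 at 27.8 ± 2.69 and 7.09 ± 2.83 CPM. The share of Clba1-202 was 24.6%, 28.1% and 26.9% in the WT mice and 18.4%, 8.16% and 18.4% in the knockout mice, without overlap.

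Siva1 stood at 52.2% of its WT level in the knockout. It had 748, 689 and 711 counts in WT and 433, 391 and 426 in the knockout, or 29.3 ± 3.96 and 15.3 ± 1.95 CPM (SD, n = 3 each). The knockout libraries held 59.7%, 50.0% and 47.0% of the WT mean, and the log2 fold change was -0.94 (SE 0.15). WT mouse 1 was the highest library at 33.9 CPM, and without it the edgeR adjusted p was 0.0638. The coding model Siva1-201 had 29.8, 21.3 and 22.5 CPM in WT and 11.6, 10.2 and 8.42 CPM in the knockout. The 3 models annotated with a retained intron summed to 4.83 ± 0.702 CPM in WT and 5.20 ± 0.659 CPM in the knockout, which overlapped, so their share of the gene's counts went from 16.7% to 34.0%.

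Ahnak2 had 440, 468 and 467 counts in WT and 212, 258 and 358 in the knockout. In CPM these were 18.7 ± 1.08 and 9.94 ± 1.52 (SD, n = 3 each), with knockout mouse 3 the nearest to WT at 62.0% of its mean. The log2 fold change was -0.91 (SE 0.15), and the call ended without WT mouse 1 (edgeR adjusted p = 0.0638) or knockout mouse 2 (0.0612). None of the 4 transcripts annotated to Ahnak2 matched the transcript tables by identifier, so its isoforms are not described.

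**Figure D2:**
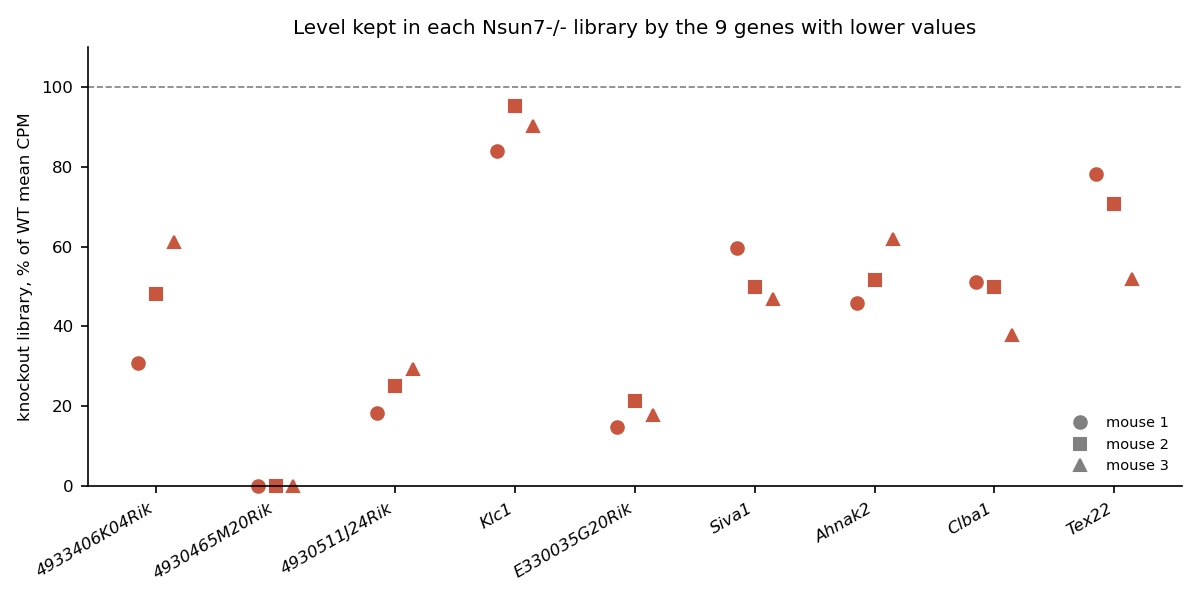
Level of each of the 9 genes with lower values in the 3 Nsun7-/- libraries, as a percentage of the WT mean CPM (dashed line at 100%); symbols mark the knockout mouse, and the genes run in chromosome order. Mouse 3 is the highest for 4933406K04Rik, 4930511J24Rik and Ahnak2 and the lowest for Siva1, Clba1 and Tex22.

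The knockout mice did not rank the same way for all of these genes. Of the 8 lower genes with a knockout count, 3 were highest in mouse 1, 2 in mouse 2 and 3 in mouse 3. Mouse 3 kept most of 4933406K04Rik (61.1%), 4930511J24Rik (29.4%) and Ahnak2 (62.0%) and least of Siva1 (47.0%), Clba1 (37.7%) and Tex22 (51.9%). The summed spermatocyte markers (3062 CPM) and peritubular myoid markers (358 CPM) were also lowest in mouse 3, and their part in these values was not tested.

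Tex22 was lower as a gene by less than most of the others, and 1 transcript made up 51.5% of the difference. The gene had 2998, 3269 and 3424 counts in WT and 2541, 2480 and 2111 in the knockout, or 131 ± 4.54 and 88.0 ± 17.7 CPM (SD, n = 3 each), a log2 fold change of -0.58 (SE 0.14). Tex22-201 had 663, 757 and 710 estimated counts in WT and 179, 172 and 165 in the knockout. Its CPM fell from 29.1 ± 1.42 to 6.36 ± 1.04, a log2 fold change of -2.20 (SE 0.17). The 51.5% is the part of this drop in the difference summed over all Tex22 transcripts. The share of Tex22-201 went from 22.1%, 23.1% and 20.7% in WT to 7.05%, 6.92% and 7.84% in the knockout.

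The other Tex22 transcripts changed less. Together they stood at 103 ± 4.48 CPM in WT and 81.9 ± 18.0 CPM in the knockout. The log2 fold change of Tex22-202 was -0.47 (SE 0.18) and that of Tex22-203 was -0.20 (SE 0.18), with the genotypes of Tex22-203 overlapping. Tex22-201 and Tex22-203 have the same coding sequence of 567 bases and differ by 139 extra bases of Tex22-201 at the start of its exon 2, ahead of the coding part.

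Klc1 as a gene differed by less than the others, and its transcript Klc1-204 had no counts in the knockout. The gene had 574, 679 and 661 counts in WT and 538, 658 and 723 in the knockout, or 25.9 ± 0.433 and 23.3 ± 1.47 CPM (SD, n = 3 each), a log2 fold change of -0.16 (SE 0.12). As log2(TPM + 1) its difference was 0.12, below the median of 0.24 for all genes tested. Klc1-204 had 102, 118 and 109 estimated counts in WT and 0 in each knockout library. Klc1-205, Klc1-206 and Klc1-208 also had 0 there, but no more than 4.76 estimated counts in any WT library. Against a floor of 3 counts per knockout library, the WT level of Klc1-204, 4.50 ± 0.239 CPM, was at least 40.7-fold higher. It made up 20.4%, 20.4% and 19.2% of the gene's transcript counts in the WT mice.

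The rest of Klc1 stood at 18.0 ± 0.196 CPM in WT and 20.3 ± 1.78 CPM in the knockout, without overlap. Klc1-201 had 183, 185 and 204 estimated counts in WT and 231, 229 and 268 in the knockout, and Klc1-203 had 200, 261 and 220 in WT and 220, 345 and 317 in the knockout. Their shares went from 34.9% to 44.2% and from 41.4% to 52.5%. The matched transcripts held 85.2% to 89.5% of the Klc1 gene count, and Klc1 overlaps Xrcc3 on the other strand, where counting without strand would mix the reads of both.

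Klc1-201 and Klc1-204 differ by 24 coding bases, which keep the reading frame (1848 against 1824 coding bases). The stretch is printed because Klc1-204, which lacks these bases, had no counts in the knockout. Capitals mark the bases that Klc1-201 has and Klc1-204 lacks, and Klc1-202 and Klc1-203 begin the exon at the same base as Klc1-201.
Klc1-201: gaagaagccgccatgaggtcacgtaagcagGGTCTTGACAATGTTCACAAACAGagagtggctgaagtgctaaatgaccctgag
Klc1-204: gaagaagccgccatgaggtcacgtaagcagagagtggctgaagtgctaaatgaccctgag

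**Figure D3:**
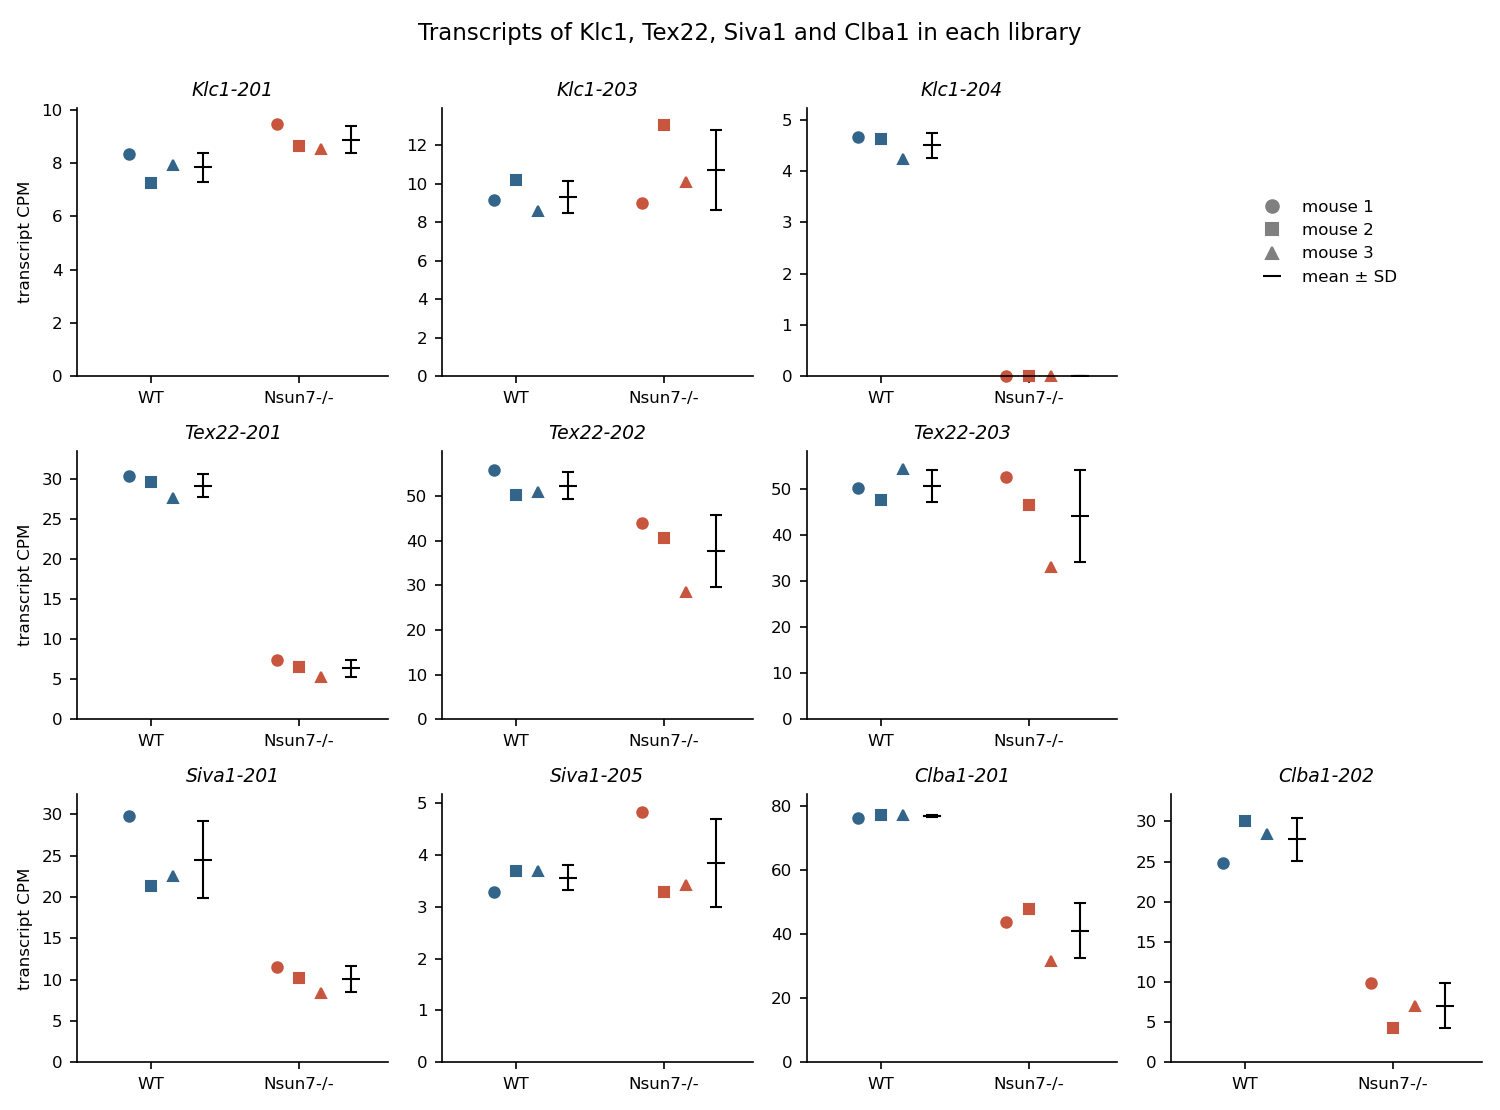
Transcript level in CPM (vertical axes, each from 0) for Klc1, Tex22, Siva1 and Clba1 in the 3 WT and 3 Nsun7-/- libraries; symbols mark the mouse and the bar is the mean ± SD of 3 mice. Klc1-204 is at 0 in all 3 knockout libraries and Tex22-201 falls from 29.1 to 6.36 CPM, while Klc1-203, Tex22-203 and Siva1-205 overlap between genotypes.

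Over the 10 genes, 31 of 35 annotated transcripts were matched, 22 passed the filter and 4 had an adjusted p under 0.05 by edgeR: Klc1-204, Tex22-201, A530016L24Rik-201 and A530016L24Rik-202. Among all 58773 transcripts tested, 0.0272% passed. Transcript values are kallisto's division of reads between models that share most of their bases, so the share of any one of them is an estimate. The calls of Klc1-204 and Tex22-201 ended when any 1 library was left out (edgeR adjusted p of 0.101 to 0.323 and of 0.102 to 0.244). Those of A530016L24Rik-201 held without WT mouse 1, knockout mouse 1 or knockout mouse 3 and ended at 0.0544 to 0.0786 without each of the others, and those of A530016L24Rik-202 held without WT mouse 1 or knockout mouse 1 and ended at 0.0539 to 0.0850 otherwise.

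The genes around these 10 were not themselves picked, but the stretch they lie in was, so their values are a description. In gene order along the chromosome (GENCODE M21 on GRCm38), the 10 genes run from the 627th to the 721st of 742 tested genes, a span of 95. Among the 85 others in this span, 48 were below 0 and the median log2 fold change was -0.07. By edgeR, 3 of the 85 passed at an adjusted p under 0.05 (3.53%, beside 0.567% of all genes tested and 0.773% of the 647 tested genes on the rest of the chromosome). At an unadjusted p under 0.05 there were 24 (28.2%, beside 8.39% of all genes tested). The span was set by genes picked for their change, so these shares carry no test.

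The 3 were all non-coding RNAs. Gm36757 rose from 0.408, 0.504 and 0.694 CPM to 1.70, 2.62 and 2.75 CPM, a log2 fold change of 2.12 (SE 0.31, edgeR adjusted p = 0.00441), with every knockout library above every WT library. Gm47541, annotated within an intron of another gene on the same strand, rose from 0.906, 0.892 and 1.39 CPM to 2.51, 2.70 and 3.36 CPM. Its log2 fold change was 1.42 (SE 0.26, edgeR adjusted p = 0.0236). Brf1, beside Gm47541 in the gene order and on the same strand, stood at 79.7 ± 7.28 CPM in WT and 105 ± 11.8 CPM in the knockout. The log2 fold change of Brf1 was 0.40 (edgeR adjusted p = 0.318). Whether reads of Brf1 were counted for Gm47541 was not tested. Meg3, a maternally expressed imprinted lncRNA, fell from 5.30, 3.06 and 4.74 CPM to 2.18, 1.31 and 1.46 CPM, a log2 fold change of -1.41 (SE 0.26, edgeR adjusted p = 0.0265). Gm36757 kept its call when any 1 library was left out and lost it without WT mouse 1 and knockout mouse 3 together (0.0772). Meg3 lost its call without WT mouse 1 (0.176), WT mouse 3 (0.124), knockout mouse 2 (0.113) or knockout mouse 3 (0.117), and Gm47541 without WT mouse 1 (0.138), WT mouse 2 (0.134), knockout mouse 2 (0.0605) or knockout mouse 3 (0.0748).

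**Figure D4:**
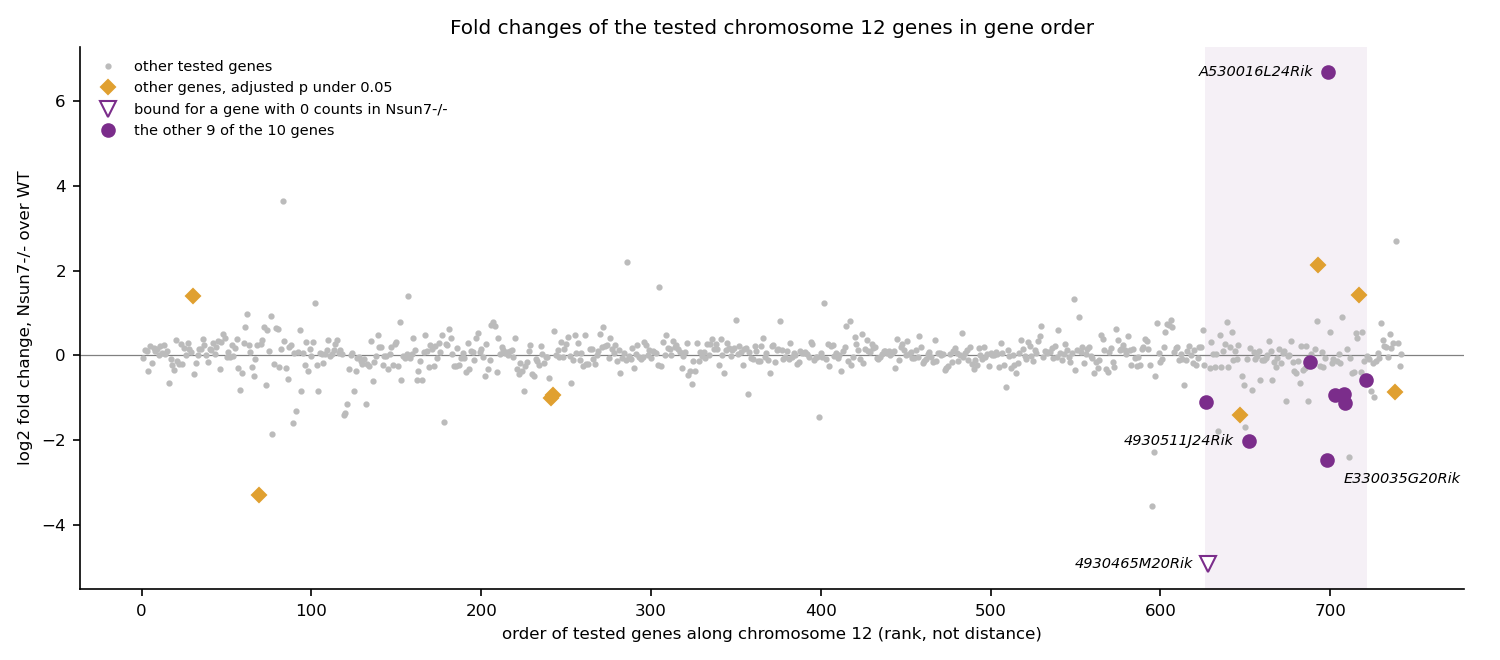
Log2 fold change (Nsun7-/- over WT, vertical axis) of the 742 tested chromosome 12 genes in gene order (horizontal axis, rank and not distance); purple marks the 10 genes, orange the other genes with an adjusted p under 0.05, and the shaded band the span from the 627th to the 721st gene. The open triangle is the bound for 4930465M20Rik, and most of the 85 other genes in the band lie near 0.

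Of the 14 nearest tested genes with a place in the gene order, on either side of the 10, 0 passed by edgeR and 1 by DESeq2 (Pld4). By edgeR, 3 of the 14 had an unadjusted p under 0.05. Of all genes tested, 8.39% did so and 0.567% passed after adjustment. The log2 fold changes of the 14 were -1.08 to 0.91 with a median of -0.07, beside 0.01 for all genes tested. Around Siva1, Adssl1, a muscle form of adenylosuccinate synthase, was at 1.39 ± 0.234 CPM in WT and 1.31 ± 0.246 CPM in the knockout, and the kinase gene Akt1 at 78.9 ± 9.07 and 72.3 ± 10.3 CPM (SD, n = 3 each). Beside Clba1, Cdca4 stood at 36.2 ± 2.97 CPM in WT and 40.3 ± 4.12 CPM in the knockout (SD, n = 3 each), and beside Ahnak2, Pld4 at 3.85 ± 0.420 and 7.26 ± 2.00 CPM (log2 fold change 0.91, edgeR adjusted p = 0.0931). Pld4, a phospholipase D family gene, passed without knockout mouse 3 (edgeR adjusted p = 0.0182).

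Around Tex22, the log2 fold change of Pacs2 was -0.14 (SE 0.11) and Mta1, a subunit of the NuRD complex, stood at 154 ± 5.36 and 154 ± 6.95 CPM. Tmem179, on the far side of A530016L24Rik, stood at 10.9 ± 1.19 CPM in WT and 16.0 ± 1.69 CPM in the knockout (log2 fold change 0.56, edgeR adjusted p = 0.170), and Kif26a, on the far side of E330035G20Rik, had a log2 fold change of -0.06 (SE 0.14). Xrcc3, which overlaps Klc1, stood at 16.2 ± 0.855 and 16.5 ± 2.34 CPM, and Gm15996, on the other side of Klc1, at 1.19 ± 0.117 and 0.542 ± 0.381 CPM. Beside the lncRNAs, 1700121N20Rik had a log2 fold change of -0.22 (SE 0.30), Bcl11b of -0.30 (SE 0.27), Mirg of -0.10 (SE 0.15) and Gm34719 of 0.17 (SE 0.36).

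No gene of the pathway lists around the protein-coding members passed by edgeR. Of 12 tested genes listed around kinesin-1, not all of them chains of the motor and Klc1 among them, 0 passed by edgeR. DESeq2 passed 1 (Klc3). By edgeR 1 had an unadjusted p under 0.05, with a median log2 fold change of -0.10. Klc3, a light chain known from sperm tails, stood at 54.9 ± 3.48 CPM in WT and 34.8 ± 7.48 CPM in the knockout (log2 fold change -0.66, edgeR adjusted p = 0.0917), and passed without knockout mouse 1 (0.0172) or knockout mouse 3 (0.0452). Klc2 had a log2 fold change of -0.26 (SE 0.13).

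Of 12 genes around SIVA1 and p53-driven death, 0 passed by edgeR, 0 by DESeq2 and 1 had an unadjusted p under 0.05, with a median of -0.03. The log2 fold change was -0.28 (SE 0.12) for the signalling adaptor Traf2 and 0.38 (SE 0.20) for Bbc3, the pro-apoptotic PUMA. Of 15 clathrin and AP-1 adaptor genes, 0 passed by edgeR, 0 by DESeq2 and 0 had an unadjusted p under 0.05, with a median of -0.12. Cltc, the clathrin heavy chain, stood at 344 ± 32.4 CPM in WT and 407 ± 39.8 CPM in the knockout (log2 fold change 0.25), and the adaptor Gga1 at 264, 248 and 249 CPM in WT and 230, 240 and 170 CPM in the knockout. Of 6 partners of the AHNAK proteins, 0 passed by edgeR, 0 by DESeq2 and 0 had an unadjusted p under 0.05, with a median of 0.15. S100a10 stood at 4.24 ± 0.155 CPM in WT and 5.58 ± 1.53 CPM in the knockout, and Myof, myoferlin, at 13.0 ± 2.83 and 10.5 ± 0.949 CPM.

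In a list of 45 named genes of distal chromosome 12, 44 were tested (Adss1 is in the table under its older symbol Adssl1, given above), 0 passed by edgeR, 4 by DESeq2 (Zfp839, Coa8, Pld4 and Crip1) and 11 had an unadjusted p under 0.05, with 29 below 0 and a median of -0.10. Most of the listed genes are also among the 85 others of the span, so these counts are not a separate observation. Of all 21002 genes tested, DESeq2 passed 213, 8.39% had an unadjusted p under 0.05 and 47.5% were below 0, with a median of 0.01. The smallest p-values were those of Zfp839, a zinc finger gene, with 31.9 ± 1.35 CPM in WT and 21.4 ± 1.36 CPM in the knockout (log2 fold change -0.58, edgeR adjusted p = 0.0547), and of Coa8, an assembly factor of cytochrome c oxidase, with 24.8 ± 2.45 and 16.1 ± 1.06 CPM (log2 fold change -0.63, edgeR adjusted p = 0.0566). The genotypes of both did not overlap. Coa8 had no place in the gene order used here, so it is in neither the 85 others of the span nor the 14 nearest genes. Zfp839 passed without knockout mouse 1 (0.0354) or knockout mouse 3 (0.0452), and Coa8 without knockout mouse 3 (0.0323).

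On the TPM scale the median of all genes tested was 0.24 higher in the knockout as log2(TPM + 1), and differences are read against that shift. There the genotypes of 6 of the 10 genes did not overlap, for which the share over all genes tested was not computed. With limma 61 of all 21002 genes passed, and 4930465M20Rik, A530016L24Rik and E330035G20Rik were the 3 of the 10 that did. The limma adjusted p of the other 5 that passed on counts was 0.0658 to 0.398. Klc1 was at 0.12 on that scale, above 0 but below the median shift of 0.24.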

How the data were processed

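Testis RNA of 3 WT and 3 Nsun7-/- mice was analysed. Per the submitters' processing notes, the authors used kallisto 0.50.1 with mouse build mm39. The deposited tables hold estimated counts per transcript, gene counts and TPM, and how gene values were summed was not given in the sources used here, nor was a strand setting. Estimated counts were rounded. Genes and transcripts were filtered with filterByExpr (minimum count 10, minimum total 15), scaled by TMM to CPM and tested with edgeR 4.0.16 (quasi-likelihood, genotype as the only term) in R 4.3.3, and p-values were adjusted over all genes or transcripts. SE is the log2 fold change divided by the root of F. The fit was tested on simulated counts. Gene order and transcript models came from GENCODE M21 on GRCm38, so no gene coordinates are given. Of the genes tested, 93.5% had a place.

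The members and lists were chosen with earlier results of these data known. Named were all members, their transcripts with at least 10% of the gene's estimated counts in a library, neighbours past the threshold, the nearest tested genes and the pair of smallest p-values in each list. Brf1 was added for its place beside Gm47541. Alternatives were scaling by RLE or by upper quartile, testing without the filter, DESeq2 1.42.0, a replicate block, limma 3.58.1 on log2 TPM with pseudocounts of 1 and 0.1, and leaving out libraries. Library sizes after TMM scaling, 22076000 to 30911900, give 3 counts a level of 0.0971 to 0.136 CPM. The mice are separate animals, and no library was a copy of another.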

Additional observations from a re-analysis of the deposited data

How the results depend on the processing

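With no filter, DESeq2 or the replicate block, 180, 213 and 331 genes passed against 119, and 5, 5 and 8 of the 85 neighbours against 3. Of the 45 listed genes, 4, 4 and 5 passed against 0. On log2(TPM + 1) and log2(TPM + 0.1), 61 and 68 genes passed, 3 and 3 of the 10 members against 8, and 1 neighbour on the first. Leaving out 1 library gave 67 to 166 genes, 5 to 9 members, 1 to 4 neighbours, 0 to 3 listed genes, 0 to 6 transcripts against 16 and 0 to 2 member transcripts against 4. Leaving out WT mouse 1 and knockout mouse 3 together, chosen after seeing the data, gave 2 listed genes, 2 transcripts and 0 member transcripts. The replicate block left 0 transcripts. Deviations of same-numbered mice correlated at 0.177, -0.0048 and 0.199, and those of other-numbered mice at -0.235 to 0.0565. The sample labels do not say whether the numbers pair animals, and the main fit did not use them as pairs. The block added Tex22 (edgeR adjusted p = 0.00857). Nsun7 had a log2 fold change of -0.46 and -0.50 on the TPM scales, not passing, and of -1.03 to -0.76 without 1 library, where its call ended without WT mouse 1, 2 or 3 or knockout mouse 2 (edgeR adjusted p of 0.0556 to 0.0930). 4930465M20Rik, A530016L24Rik and E330035G20Rik kept their calls in all 14 alternatives. Tex22 passed with no filter (0.0475), DESeq2 (0.0199) and without knockout mouse 1 (0.0149).

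The medians of all genes tested were 0.24 on log2(TPM + 1) and 0.30 on log2(TPM + 0.1). Signs on these scales are read against that shift. Values that changed sign about 0 were small and did not pass. On log2(TPM + 1) and log2(TPM + 0.1) these were Klc1 (0.12 and 0.13), Akt1 (0.22 on both), Pacs2 (0.23 on both), Mta1 (0.39 on both), Xrcc3 (-0.20 and -0.21), 1700121N20Rik (0.09 and 0.12), Mirg (0.20 and 0.21), Kif26a (0.24 and 0.29), Klc2 (0.08 on both), Gga1 (0.07 on both) and Myof (0.18 and 0.26). Without 1 library the ranges crossed 0 for Adssl1 (-0.21 to 0.05), Mta1 (-0.04 to 0.02), Xrcc3 (-0.04 to 0.13), Mirg (-0.26 to 0.00), Gm34719 (-0.03 to 0.40) and Kif26a (-0.16 to 0.02), and without both libraries the sign changed for Adssl1 (0.02), Akt1 (0.04), Mta1 (0.00) and Kif26a (0.10). By share of summed TPM, 24 of the isoform shares moved by more than 1 SD and 10 did not. Tex22-201 was at 15.3% in WT and 4.90% in the knockout, and the cause was not tested.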
